A study of Mus musculus with 1536 samples.

Results

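Integrins are receptors that hold cells to the matrix around them, each built from 1 α-subunit and 1 β-subunit. The 10 integrin genes described here are *Itga1*, *Itga2*, *Itga3*, *Itga5*, *Itga6*, *Itga9*, *Itgav*, *Itgb1*, *Itgb3* and *Itgb4*. They were taken by symbol from the 23168 genes of the expression matrix, and all 10 were present. Their values were read over all adult cells, and in the 17.9% of cells with *Cldn11* above 1 against the rest. *Cldn11* encodes claudin-11, a tight-junction protein used to mark lymphatic valve cells, and 1 is a value on the natural log scale of the deposited data.

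The cells were lymphatic endothelial cells (LECs) from the nasopharynx of adult c57bl/6 mice aged 10–12 weeks, sorted as CD31+ PDPN+ (positive for a pan-endothelial protein and for podoplanin) and sequenced 1 cell per well by Smart-seq3, which reads cDNA over its full length. No treatment or allele distinguished any of them. Male and female mice, 30 in all, contributed to 1 pool of tissue, from which the cells were sorted. Neither the labels nor the columns tie a cell to its mouse or plate. The cells are therefore 1 sample, the groups described here are ranges of cells within it, and no test or replicate error can be given. Most groups are given as a share of all cells, and their numbers of cells stand with the methods. Intervals on shares of cells are exact Clopper–Pearson 95% intervals and cover counting error only. That error is a lower limit, because cells from the same mouse or plate may not be independent. The share of all genes whose intervals do not overlap between groups was not computed, so no such gap is read as a finding. SDs are over cells. Aged cells were not analysed here.

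In an integrin the α-subunit largely sets which ligand is bound, and the β-subunit links the receptor to the cytoskeleton through talin and kindlin. β1, encoded by *Itgb1*, is the common partner of α1 and α2 (collagen receptors), α3 and α6 (laminin receptors), α5 (the classical fibronectin receptor) and α9. α6 also pairs with β4, which is tied to intermediate filaments through plectin, and αv pairs with β3. α9β1 binds the EIIIA segment of fibronectin, tenascin-C, EMILIN1 and osteopontin, and in the mouse it is required for the formation of lymphatic valve leaflets. The working name of *Itga9* as a valve integrin comes from that role, and the comparison with *Cldn11* asks whether the transcript was higher in the cells that carry the valve marker.

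*Itga9* lies on chromosome 9 of the mouse genome (GRCm38, equal to mm10), from 118606690 to 118901003 on the plus strand. The part of an α-subunit that α9 shares with the other α-subunits most closely is a short stretch of the cytoplasmic tail beside the membrane, which holds the α- and β-tails together. The coding bases of that stretch are shown for the 7 α-subunits because they show where *Itga9* departs from the other members. Each run is 45 bases of coding sequence in GRCm38 (GENCODE M21), 5′ to 3′, spliced across an intron, with the 15 bases of the shared motif in capitals.
Itga9: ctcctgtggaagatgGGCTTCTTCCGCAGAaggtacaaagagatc
Itga1: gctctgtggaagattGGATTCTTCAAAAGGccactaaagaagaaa
Itga2: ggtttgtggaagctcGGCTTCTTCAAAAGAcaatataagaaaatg
Itga3: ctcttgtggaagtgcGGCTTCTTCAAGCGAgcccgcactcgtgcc
Itga5: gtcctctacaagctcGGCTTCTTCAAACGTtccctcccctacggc
Itga6: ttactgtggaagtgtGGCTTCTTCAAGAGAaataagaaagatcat
Itgav: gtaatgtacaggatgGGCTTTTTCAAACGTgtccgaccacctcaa
The runs lie, intron included, at chr9:118887872-118897266 (plus strand) for *Itga9*, chr13:114960102-114965609 (minus) for *Itga1*, chr13:114836533-114837104 (minus) for *Itga2*, chr11:95046558-95046932 (minus) for *Itga3*, chr15:103345320-103345963 (minus) for *Itga5*, chr2:71849495-71853566 (plus) for *Itga6* and chr2:83802991-83803272 (plus) for *Itgav*. Counted from 1 at the first capital base, with the base of *Itga9* first, the changes C10A and G11A were present in all 6 other members. Both bases belong to the fourth codon of the motif. *Itga9* differed from *Itga2* and *Itga6* at 3 of the 15 bases and from *Itgav* at 6. After the motif *Itga9* had 78 further coding bases before its stop codon, and *Itga1* had 24, the fewest of the 7.

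Few of the members' bases are shared with other genes. No 50-base window of a member was shared with another member. For *Itga2*, *Itga3*, *Itga5*, *Itga9*, *Itgav* and *Itgb1* no window was shared with any other gene. The share was 5.50% of windows for *Itga1*, 6.50% for *Itga6*, 5.0% for *Itgb4* and 0.0872% for *Itgb3*. *Itga1* overlapped *Gm49395* on the same strand over 3.68% of its exonic bases, *Itgav* overlapped *Gm13684* on the other strand over 5.90%, and *Itgb4* overlapped *B230344G16Rik* on the other strand over 7.66%. Whether the counting used strand is not stated, so reads in those stretches are uncertain.

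The cells carried between 7433 and 3524358 reads, with a median of 350746, and between 2001 and 7236 genes. LEC markers were general, with *Prox1* (the lymphatic fate regulator) in 97.7% of cells and *Flt4* (VEGFR3) in 99.8%. Of 5 immune markers, *Ptprc* and *Cd3e* were at 0 in all cells, while *Lyz2* was found in 7.96%, *Cd79a* in 2.85% and *Tyrobp* in 0.356%, and their summed level reached 260.2 reads per 10000 in 1 cell of the rest. In 47 cells at least 2 markers of another cell type had values above 1, and in 44 of them these were blood endothelial markers, mainly *Plvap* and *Cd34*, which LECs may also express. A cell with few reads misses more genes, so shares are also given after each cell was thinned to 20000 reads. For this 51 cells were too shallow and were left out, 5 of them with *Cldn11* above 1.

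*Itga9* was a widely detected α-subunit. A read was found in 76.01% of cells (interval 72.98–78.86%). On the natural log scale, ln(1 + reads per 10000), its value ranged from 0 to 2.81 with a median of 0.708, and its mean was 0.729 ± 0.682 (SD over all cells). The SD was therefore nearly as large as the mean, and cells at 0 and cells above 2 were both present. At 20000 reads per cell, *Itga9* was found in 61.3% of cells.

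*Itgb1*, the β-subunit that α9 needs, was found in the most cells. It was present in 93.6% of cells (interval 91.7–95.2%) with a mean natural log value of 1.22 ± 0.638 and a highest value of 3.98. Next to it, *Itgb4* was found in 67.6% of cells (mean 0.681 ± 0.751) and *Itgb3* in 50.7% (mean 0.384 ± 0.547). The other β-subunits of the mouse were rare in these cells.

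Among the α-subunits, the fibronectin receptor gene *Itga5* was found in 66.2% of cells (mean 0.563 ± 0.629) and the collagen receptor gene *Itga1* in 59.9% (mean 0.491 ± 0.621). *Itga6*, a laminin receptor gene, and *Itgav*, whose product binds vitronectin, fibronectin and other ligands, were found in 56.5% and 56.3% of cells. *Itga3*, another laminin receptor gene, was found in 40.1% (mean 0.297 ± 0.543). *Itga2* stood apart from all of these, with a read in 13 cells (1.54%, interval 0.825–2.63%). At 20000 reads per cell the shares were 88.2% for *Itgb1*, 53.1% for *Itga5*, 52.7% for *Itgb4*, 42.1% for *Itga1*, 40.3% for *Itga6*, 35.4% for *Itgb3*, 33.4% for *Itgav*, 26.04% for *Itga3* and 0.759% for *Itga2*. In this order *Itgb4* came after *Itga5*, and *Itgav* after *Itgb3*, the reverse of their order before thinning.

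Levels between genes can be compared only per length. As mean reads per 10000 per kb of exonic sequence, *Itgb1* was first at 0.763 ± 0.750 (SD over cells). *Itgb4* followed at 0.248 ± 0.393, *Itga5* at 0.247 ± 0.396 and *Itga9* at 0.219 ± 0.298. *Itgb4* and *Itga5* differed by a factor of 1.01, and *Itga5* and *Itga9* by 1.13. Below them came *Itgb3* at 0.130, *Itga3* at 0.116, *Itga6* at 0.0746, *Itga1* at 0.0570 and *Itgav* at 0.0446. *Itga2* was last at 0.00183, lower than *Itgav* by a factor of 24.3. Neighbours from *Itgb4* to *Itgav* differed by less than the SD over cells of either gene. *Itgb1* stood above *Itgb4*, and *Itgav* above *Itga2*, by more than the SD of the lower gene and less than that of the higher. These SDs are the spread of single cells and do not measure the error of a mean. The order was the same when reads were summed over all cells instead of averaged per cell. Both used the same lengths, those of all annotated exons of a gene joined. For *Itga6* this was 9.03 kb, against 4310 bases in its main coding transcript. For *Itga1* it was 18.6 kb against 10967 bases, and for *Itgav* 10.7 kb against 7054. The places of these genes may therefore depend on the length used. Levels per transcript length were not computed. *Itga1* was in more cells than *Itga3* yet lower per kb of these joined exons, which are the longest of the 10 for *Itga1*.

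**Figure D1:**
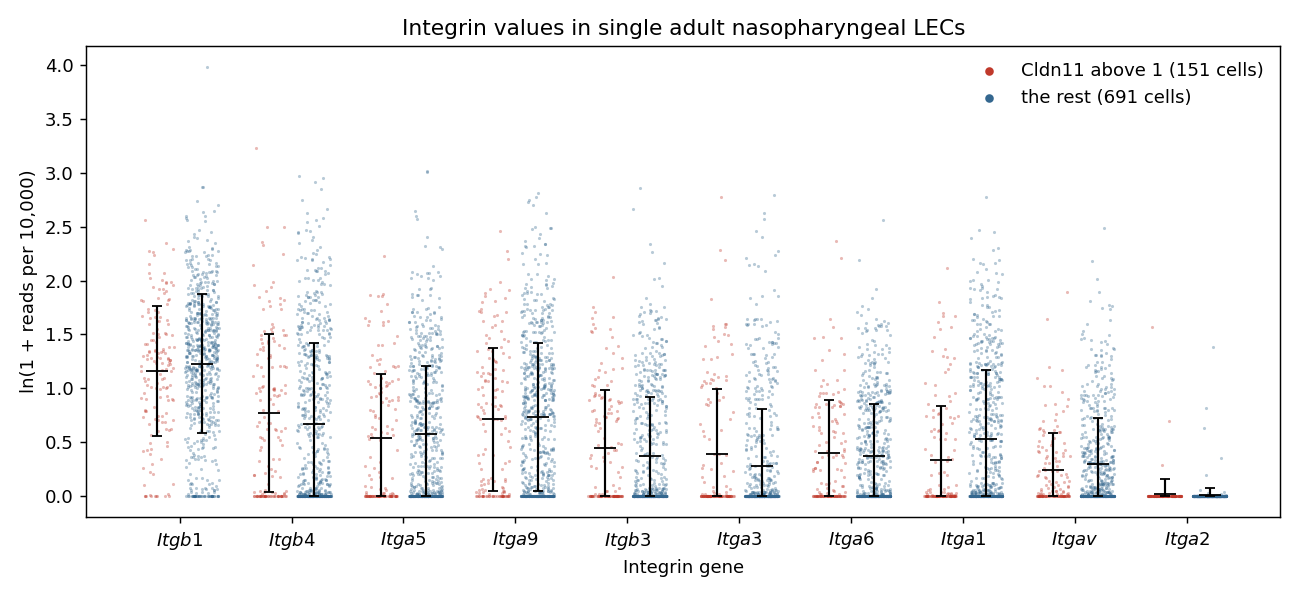
Deposited values of the 10 integrin genes in single cells, in order of level per kb, with the cells with *Cldn11* above 1 in red and the rest in blue; the vertical axis is ln(1 + reads per 10000), horizontal dashes are means and vertical bars are 1 SD over cells, cut at 0. The colours overlap for *Itga9*, with highest values of 2.46 and 2.81 and means of 0.710 and 0.733, and the largest shift is the lower mean of *Itga1* in red, 0.327 against 0.527.

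Of the other valve markers, some were found in more cells above the *Cldn11* gate and some were not. *Gata2*, a transcription factor of valve development, was found in 52.3% of cells above the gate against 39.5% of the rest, and *Gja4* (connexin 37) in 59.6% against 48.5%. *Foxc2* was found in 26.5% against 23.01%, though its mean reads per 10000 were lower above the gate, at 0.168 against 0.194. *Nfatc1* was found in 84.8% against 84.2%, and *Gja1* (connexin 43) in 93.4% against 97.4%. The intervals of the 2 shares did not overlap for *Gata2* (44.04–60.50% and 35.8–43.3%), and they did for the other 4. With *Cldn11* between 0.5 and 1.5, 65 cells were below the gate and 74 above it, so the gate divides a continuous range. Each cell above the gate held at least 2 *Cldn11* reads. Median depth was 322571 reads above the gate and 360540 in the rest.

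No difference in *Itga9* by *Cldn11* was seen. A read was found in 77.5% of cells above the gate (interval 69.98–83.9%) and in 75.7% of the rest (interval 72.3–78.8%). Above the gate the natural log values ran from 0 to 2.46 with a median of 0.708, and in the rest from 0 to 2.81 with a median of 0.707. The means were 0.710 ± 0.664 and 0.733 ± 0.687. The ranges overlapped throughout, and the medians were nearly equal. The log2 ratio of mean reads per 10000 (pseudocount 1), cells above the gate over the rest, was -0.08, and -0.01 at 20000 reads per cell. The label of a valve integrin thus had no counterpart in this comparison of transcript levels. The gate rests on *Cldn11* alone, and several other valve markers were hardly more frequent above it. The comparison therefore cannot decide whether *Itga9* is higher in valve cells. Whether valve cells carry more α9 protein was not measured.

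Values along the *Cldn11* range gave no steady trend for *Itga9*. Its mean natural log value was 0.730 in the cells without a *Cldn11* read, 0.742 in the cells above 0 and up to 1, 0.658 in the cells above 1 and up to 2, and 0.876 in the 36 cells above 2. In that last bin 80.6% of cells held a read (interval 63.98–91.8%), against 73.9% of cells with *Cldn11* at 0 (interval 69.9–77.6%). The intervals overlapped. At 20000 reads per cell the shares of all 4 bins lay between 60% and 62.9%. Just inside the gate, in 74 cells, the mean was 0.615, and just outside it, in 65 cells, 0.820.

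The other valve markers gave a similar account when each was used as the gate in place of *Cldn11*. The log2 ratio of *Itga9*, cells with the marker above 1 over the rest, was 0.05 for *Gja4*, 0.12 for *Foxc2* (26 cells above), 0.13 for *Gata2* (84 cells), -0.01 for *Nfatc1* and -0.05 for *Gja1*. At 20000 reads per cell that for *Gata2* was 0.26. None of these reached 1.5-fold. *Itga9* was in 77.4% of the cells with *Gata2* above 1 (interval 66.95–85.8%) and in 75.9% of the rest.

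Of the 10 members, 9 were found in at least 10% of either group and could be compared by *Cldn11*. None of the 9 was 1.5-fold higher and none was 1.5-fold lower. Among all 9962 genes compared, 14 were at least 1.5-fold higher above the gate (0.141%) and 11 at least 1.5-fold lower (0.11%), so with 9 members fewer than 1 would be past this fold at the background share. The median log2 ratio was -0.08 over the 9 members and -0.0083 over all genes compared. A pseudocount of 1 read per 10000 understates the change of genes with low means, as most members have.

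*Itga1* was the member with the largest difference, and it was lower above the gate. Low shares of *Itga1* were also found in some ranges of the rest, given below. An *Itga1* read was found in 49.7% of cells above the gate (interval 41.4–57.9%) and in 62.1% of the rest (interval 58.4–65.7%). These intervals did not overlap, but those at 20000 reads per cell did. The shares were then 32.9% (interval 25.3–41.1%) and 44.2% (interval 40.3–48.1%). The medians were 0 and 0.168 on the natural log scale, and the highest values 2.11 and 2.77. The values of both groups overlapped, with a larger share of cells at 0 above the gate. The log2 ratio was -0.40, and -0.35 at 20000 reads per cell. Along the *Cldn11* range the share of cells with an *Itga1* read was 62.9% at 0, 59.5% above 0 and up to 1, 54.8% above 1 and up to 2, and 33.3% above 2 (interval 18.6–50.97%, 36 cells). With *Cldn11* above 2 as the gate, the log2 ratio of *Itga1* was -0.64, past 1.5-fold.

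The remaining members shifted by less. *Itga3* had a log2 ratio of 0.21, with a read in 44.4% of cells above the gate against 39.2% of the rest. *Itgb4* stood at 0.11 (73.5% against 66.3%), *Itgb3* at 0.07 (55.6% against 49.6%) and *Itga6* at 0.05 (60.9% against 55.6%). *Itgb1* and *Itgav* were both at -0.14, and *Itga5* at -0.11. *Itga2* was found in 3 cells above the gate and 10 of the rest, too few to compare. For each of these members the interval of the share above the gate overlapped that of the rest.

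**Figure D2:**
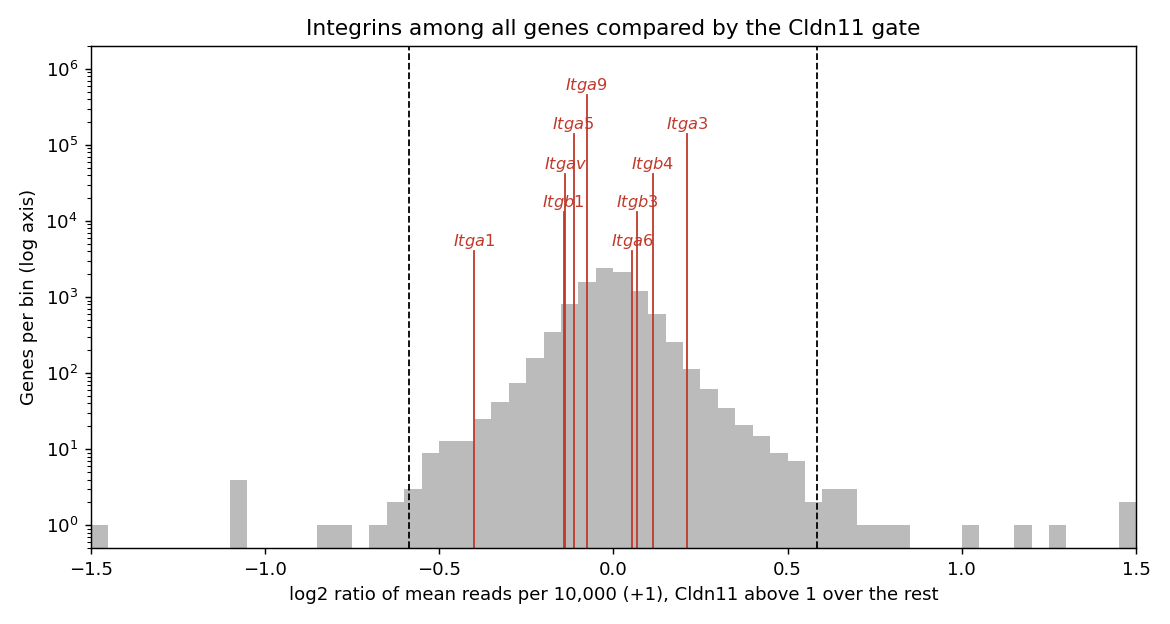
Log2 ratios of mean reads per 10000 (pseudocount 1), cells with *Cldn11* above 1 over the rest, for the 9962 genes compared (grey bars, counts on a log axis; genes beyond the axis are counted in the outermost bars). Red lines of staggered height mark the 9 members, from *Itga1* at -0.40 to *Itga3* at 0.21, all inside the dashed lines at 1.5-fold in either direction.

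Among the α9β1 ligands that could be compared, fibronectin was past the fold. Its value is for the whole *Fn1* gene, and transcripts with the EIIIA segment were not measured apart. *Fn1* was found in 96.03% of cells above the *Cldn11* gate (interval 91.6–98.5%) and in 86.4% of the rest (interval 83.6–88.9%), with means of 1.77 ± 1.01 and 1.32 ± 1.01 on the natural log scale. Its log2 ratio was 0.61, and between 0.57 and 0.70 under 5 other settings, the lowest in cells with at least 3000 genes, where it was no longer 1.5-fold higher. Without the 47 cells that held markers of other cell types it was 0.59. *Fn1* is also a fibroblast gene. The summed level of the 5 fibroblast markers had a median of 0 in both groups, and ran up to 156.3 reads per 10000 in 1 cell above the gate and up to 6.18 in the rest. *Tnc* (tenascin-C) was lower above the gate, with a log2 ratio of -0.41 and a read in 41.7% of cells against 50.9%. The ratio of *Tnc* lay between -0.68 (pseudocount 0.1, past 1.5-fold) and -0.25 (cells with at least 3000 genes) under 5 other settings. *Emilin1* was nearly level at 0.06. *Spp1* (osteopontin) and *Vcam1*, another α9β1 ligand, were each found in under 10% of both groups and so were not among the genes compared. *Spp1* was found in 7.28% of cells above the gate (interval 3.69–12.7%) and 2.17% of the rest (interval 1.22–3.56%), with a log2 ratio of 1.32 and a highest natural log value of 4.76. *Vcam1* was found in 9.27% (interval 5.16–15.1%) and 3.47% (interval 2.24–5.12%), with a log2 ratio of 0.34. For both genes the intervals did not overlap, a gap whose share over all genes was not computed. *Spp1* was found in 11 cells above the gate, and its ratio rests in part on the cell with the highest value. The mean reads per 10000 of *Vcam1* were 0.317 above the gate and 0.0384 in the rest. A pseudocount of 1 understates the change at means this low. Of the 14 ligand genes listed, 8 could be compared, of which 1 was past 1.5-fold with that pseudocount and it was higher. Their median log2 ratio was 0.10.

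The laminin genes bear on α3β1, α6β1 and α6β4. *Lama4* was found in 96.3% of all cells, *Lamb2* in 85.2%, *Lamc1* in 81.8% and *Lamb1* in 75.5%. *Lama5*, for a laminin chain of valve matrix, was found in 23.2% of cells above the *Cldn11* gate (interval 16.7–30.7%) and 15.6% of the rest (interval 13–18.6%), with a log2 ratio of 0.15. Its mean reads per 10000 were 0.309 and 0.183, low means at which a pseudocount of 1 understates the change.

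The intracellular partners of integrins were general in these cells. Of 19 genes listed, 18 were in the matrix and 14 were found in at least 30% of cells, among them *Tln1* (talin-1) in 85.3%, *Fermt2* (kindlin-2) in 83.9%, *Plec* (plectin, a β4 partner) in 97.5% and *Cd151* (a tetraspanin bound to laminin-binding integrins) in 96.2%. *Fermt3*, the kindlin of blood cells, was found in 2.26%. None of the 15 that could be compared by *Cldn11* was past 1.5-fold in either direction, and their median log2 ratio was -0.0012. *Ilk*, the integrin-linked kinase, was found in 5.82% of cells, while its partners *Parva* and *Lims1* were found in 89.7% and 93.8%. Of the exonic bases of *Ilk*, 89.7% overlap *Rrp8* or *Taf10*, so its low value may not be read as a low level.

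Other integrin subunits were found in few cells. Of 16 further subunits listed, 13 were in the matrix, and each was found in at most 6.18% of cells, the value of *Itga8*. *Itga10* was found in 3.56%, but 33.5% of its exonic bases overlap *Gm42957* on the same strand, so its share is uncertain. *Itga4*, whose product is the closest relative of α9, was found in 33 cells (3.92%), and *Itgb5*, which can pair with αv, in 7 cells (0.831%). *Itgal*, a leucocyte subunit, was found in 0 cells, which by the floor of 3 counts allows a share of up to 0.356% with a read. *Itgb2*, the partner of leucocyte α-subunits, was found in 25 cells (2.97%). The other 3, *Itgad*, *Itgae* and *Itgam*, were not analysed here. Apart from *Itga2*, each member was found in more cells than any of these 13.

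The share of cells with both subunits of a receptor depended on the pair and on depth. A read of both *Itga9* and *Itgb1* was found in 72.6% of cells (interval 69.4–75.6%), and in 54.99% of cells at 20000 reads. *Itgb1* was found in 95.5% of the cells with *Itga9* and in 87.6% of those without. At 20000 reads these shares were 89.7% and 85.95%, a smaller gap than before thinning. *Itga6* and *Itgb4*, the α6β4 pair, were both found in 40.6% of cells (interval 37.3–44.02%), and in 23.4% at 20000 reads. *Itgav* and *Itgb3* were both found in 31.2% of cells (interval 28.1–34.5%), and in 12.8% at 20000 reads. A cell held reads of 1 to 9 members with a median of 6, and 0 to 9 with a median of 4 at 20000 reads. The median was 6 both above the *Cldn11* gate and in the rest, and at 20000 reads it was 5 and 4.

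The members showed weak relations with each other across cells. Over the 45 pairs, Spearman's rho across all cells lay between -0.135 (*Itga1* and *Itgb4*) and 0.164 (*Itga9* and *Itgb1*), and at 20000 reads between -0.133 and 0.120. Cells share 1 library pool and differ in depth, and weak correlations in sparse counts are no finding. Of 5433 genes found in at least 30% of cells, the 5 most like *Itga9* were *Adamtsl1* (rho 0.220), *Abi3bp* (0.213), *Ece1* (0.213), *Nrp2* (0.182) and *Anxa1* (0.181). *Adamtsl1* and *Abi3bp* encode secreted matrix proteins, *Ece1* endothelin-converting enzyme 1, *Nrp2* neuropilin-2, a VEGF-C co-receptor of LECs, and *Anxa1* annexin A1. None of these values was large, and no valve marker was among the 5.

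At 3 other gates some members differed more than they did by *Cldn11*. Values above 1 of *Gja4*, *Stab2* (stabilin-2, a scavenger receptor for hyaluronan), *Fndc1* (a secreted protein with fibronectin type III domains) and *Lyve1* (the hyaluronan receptor that marks initial lymphatics) were used as gates in turn. *Itga1* with *Stab2* was the sole member past 1.5-fold in any of them with a pseudocount of 1 and all cells. It was found in 76.8% of the cells with *Stab2* above 1 (interval 71.2–81.8%), which were 31.2% of all cells, and in 52.2% of the rest (interval 48–56.3%). The means were 0.766 ± 0.688 and 0.366 ± 0.545 on the natural log scale. The log2 ratio was 0.67, 0.62 at 20000 reads, and between 0.59 and 1.16 under 5 other settings. Of all 10048 genes compared by *Stab2*, 0.707% were at least 1.5-fold higher and 0.975% at least 1.5-fold lower, so 1 of 9 members stands above the background share, though 1 gene is a small count. Median depth was 368560 reads above this gate and 350281 in the rest. *Itgb4* went the other way, in 61.6% of cells with *Stab2* above 1 against 70.3% (log2 ratio -0.41), and *Itgb1* was at 0.25. With a pseudocount of 0.1, *Itgb4* (-0.64) and *Itga6* (-0.62) were also past 1.5-fold. That pseudocount puts more of all genes past the fold, 1.78% higher and 2.90% lower by *Cldn11*. Such shares were not computed at the other gates.

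The ligands of these receptors also differed along the *Stab2* gate. *Tnc* was higher with a log2 ratio of 0.91 (63.5% of cells against 42.8%), whereas *Fn1* was lower at -0.69 and *Lamb1* at -0.63. *Itga9*, a receptor for both tenascin-C and fibronectin, stood at -0.03, with a read in 74.1% of cells with *Stab2* above 1 and 76.9% of the rest.

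In the 16.9% of cells with *Fndc1* above 1, *Itga3* was low. It was found in 19.7% of them (interval 13.5–27.2%) and in 44.3% of the rest (interval 40.6–48.05%), although the median depth was higher in the former, at 460124 reads against 335356. The log2 ratio of *Itga3* was -0.54, just inside 1.5-fold. It was past it without the 47 cells that held markers of other cell types (-0.61) and with a pseudocount of 0.1 (-1.47), as were *Itga1* (-0.61) and *Itgb3* (0.59) with that pseudocount. The ratio of *Itga3* was smaller in cells with at least 3000 genes (-0.43), with at least 100000 reads (-0.42) and at 20000 reads (-0.51). *Itgb3* was at 0.31, with a read in 64.8% against 47.9%. *Itga9* was at 0.20, its highest ratio at the 5 gates, with a mean of 0.862 ± 0.690 against 0.702 ± 0.678. Its shares of 80.3% (interval 72.8–86.5%) and 75.1% (interval 71.8–78.3%) had overlapping intervals. With a pseudocount of 1 and all cells no member was past 1.5-fold, against 0.447% of all genes higher and 0.427% lower. The shares of all genes were not computed for the other settings at this gate.

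In the 48.3% of cells with *Lyve1* above 1, *Itgb4* was found in 56.8% (interval 51.8–61.6%) against 77.7% of the rest (interval 73.5–81.5%), with a log2 ratio of -0.51, and median depths were 297641 and 376870 reads. *Itga3* was at -0.39 (30.5% against 49.2%), and *Itga1* at 0.32 (69.3% against 51.03%). *Itga9* was at 0.09. With a pseudocount of 1 no member was past 1.5-fold, against 0.391% of all genes higher and 0.301% lower. With 0.1 *Itga3* (-0.87) and *Itgb4* (-0.77) were, but the shares of all genes were not computed with it. *Tnc* was past 1.5-fold with a pseudocount of 1, at 0.63. In the 28.5% of cells with *Gja4* above 1 all 9 members lay between -0.20 (*Itgav*) and 0.19 (*Itgb3*), against 0.0499% of all genes at least 1.5-fold higher and 0.16% lower.

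**Figure D3:**
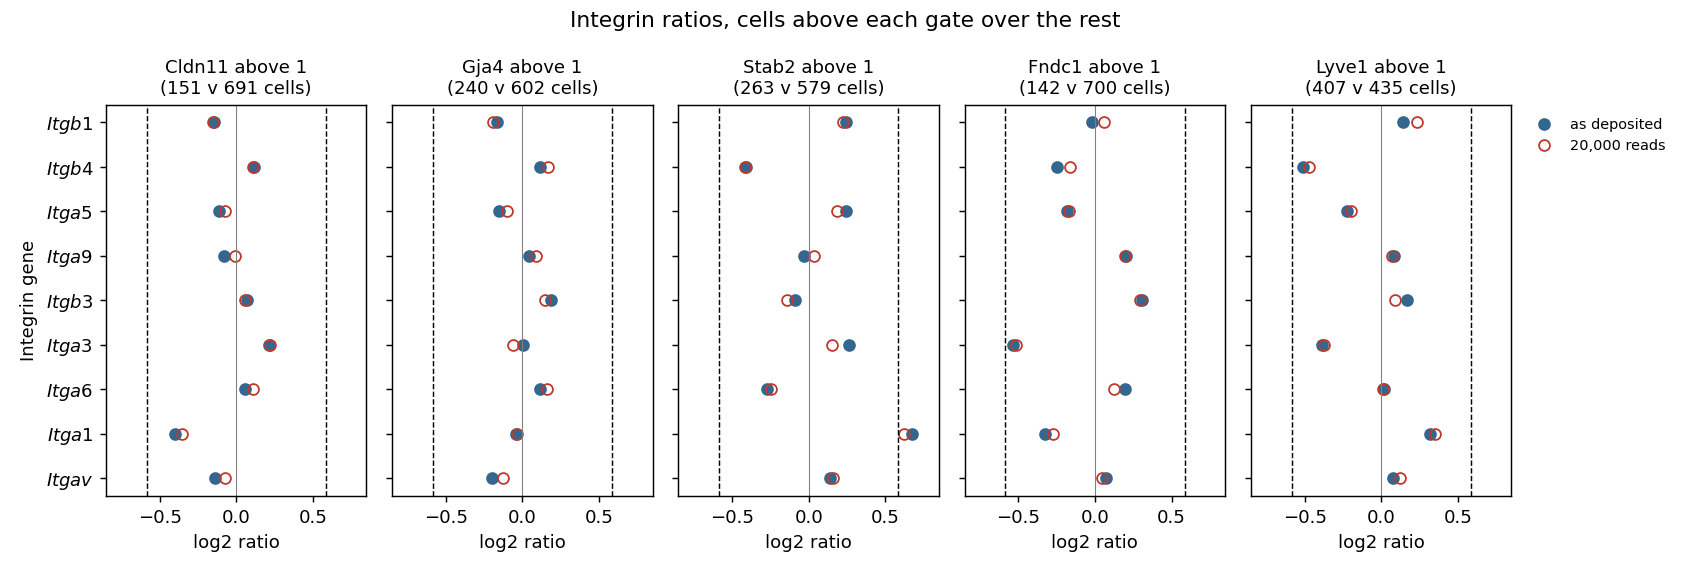
Log2 ratios (horizontal axes) of mean reads per 10000 (pseudocount 1) for the 9 members compared, cells above each of 5 gates over the rest, as deposited (filled blue) and after thinning to 20000 reads per cell (open red); dashed lines mark 1.5-fold. *Itga1* at the *Stab2* gate (0.67) is the point outside the lines, *Itga3* at the *Fndc1* gate (-0.54) and *Itgb4* at the *Lyve1* gate (-0.51) come nearest to them, and *Itga9* lies between -0.08 and 0.20 in all 5 panels.

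The gates overlap, so the cells were also divided into 6 exclusive ranges by taking the gates in the order *Cldn11*, *Stab2*, *Fndc1*, *Lyve1*, with the *Cldn11* cells split by *Gja4*. The mean of *Itga9* on the natural log scale was 0.641 ± 0.639 in the 99 cells with *Cldn11* but not *Gja4* above 1, and 0.841 ± 0.698 in the 52 cells with both. It was 0.705 ± 0.707 in the *Stab2* range, 0.918 ± 0.686 in the *Fndc1* range, 0.709 ± 0.675 in the *Lyve1* range and 0.682 ± 0.659 in the cells above none of the gates. All 6 means lay within 1 SD over cells of each other, which describes the spread of single cells and not the error of a mean. Their order put the *Fndc1* range first and the cells with *Cldn11* but not *Gja4* above 1 last. The cells with *Cldn11* and *Gja4* came second in that order.

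*Itga1* separated these ranges more than *Itga9* did. Its share of cells with a read was 77.6% in the *Stab2* range (interval 71.8–82.7%) and 70% in the *Lyve1* range (interval 61.7–77.4%). It was 53.5% in cells with *Cldn11* but not *Gja4* above 1, 42.3% in cells with *Cldn11* and *Gja4*, 53.2% in the *Fndc1* range and 42.7% in the cells above no gate (interval 35.7–49.9%). A low share of *Itga1* was thus not particular to the cells with *Cldn11* above 1. *Itgb4* had another order, with 78.9% in the cells above no gate, 78.8% in those with *Cldn11* and *Gja4*, and 57.1% in the *Lyve1* range. *Itga3* was found in 17.1% of the *Fndc1* range and 27.9% of the *Lyve1* range, against 41.4% to 50% of the other 4. *Itgb1* was even throughout, with means between 1.07 and 1.34.

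**Figure D4:**
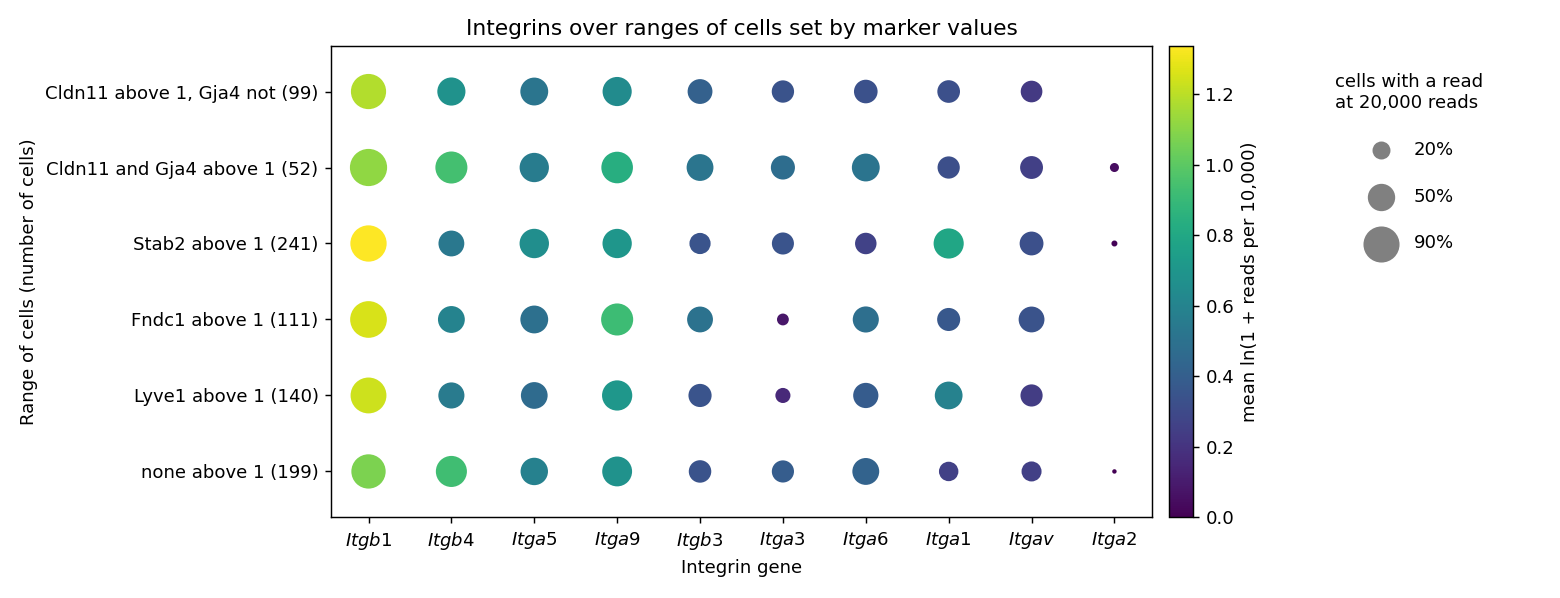
Integrin genes (columns, in order of level per kb) over 6 exclusive ranges of cells set by marker values (rows, number of cells in brackets); circle area is the share of cells with a read at 20000 reads per cell and colour is the mean of ln(1 + reads per 10000) before thinning. *Itgb1* and *Itga9* are present in all 6 rows, *Itga1* has its highest mean in the *Stab2* range (0.789) and *Itga3* its lowest in the *Fndc1* range (0.0787).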

How the data were processed

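Single LECs were sequenced by Smart-seq3. Reads were mapped by the authors with STAR (build mm10), assigned to genes with featureCounts of Subread, and cells were filtered and normalised with Seurat 4.1.0; how strand and multi-mapping reads were treated is not given in the sources used here. Each deposited value is a natural log, ln(1 + reads per 10000). They gave whole reads for 100% of values above 0 (tolerance 0.01 reads). Depth per cell was recovered from these reads and limits the shares of cells, most of all below 20000 reads.

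From the deposited values, means, SDs, shares of cells with Clopper–Pearson 95% intervals and log2 ratios of mean reads per 10000 (pseudocount 1) were computed in Python 3.11.15 with numpy 2.4.6, pandas 2.3.3 and scipy 1.17.1. Genes found in at least 10% of either group were compared, and a ratio of 1.5-fold was the threshold. Exonic lengths and sequences came from GENCODE M21 (GRCm38). The calculation of the ratios was tested on simulated data with known folds. With 1 pooled sample no statistical test between groups was made.

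Of 1536 wells listed in the labels, 842 cells are in the matrix. *Cldn11* was above 1 in 151 and not in 691 (528 at 0, 163 above 0 and up to 1, with 115 above 1 and up to 2 and 36 above 2). *Gja4* was above 1 in 240 cells, *Stab2* in 263, *Fndc1* in 142 and *Lyve1* in 407. The exclusive ranges, taken in the order of the text, held 99, 52, 241, 111, 140 and 199 cells, and 791 cells were thinned.

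All 10 members are named, with ligands, partners and further subunits from lists, those past 1.5-fold or found in at least 30% of cells, and the 5 genes with the highest rho with *Itga9*. Other ligands, partners and subunits given with values were named after their values were seen. One listed gene is not reported here. The members and lists were chosen with earlier results of these data known. Alternatives were another pseudocount, summed reads, the difference of natural log values, *Cldn11* gates of 0 and 2, thinning, at least 3000 genes, values above 1 as found, no filter on low genes and leaving out cells with markers of other cell types. Cells away from the gate, cells with at least 100000 reads and the other gates were added after the data were seen.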

Additional observations from a re-analysis of the deposited data

How the results depend on the processing

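No paired analysis was possible because the result comes from no test and the cells are 1 sample. The log2 ratio of *Itga9* by *Cldn11* ranged from -0.12 (pseudocount 0.1) to 0.23 (*Cldn11* above 2, 36 cells) over 10 alternatives, above 0 in 4 and below 0 in 6, and stayed inside 1.5-fold in all 10. The number of members at least 1.5-fold lower was 0, and became 1 with a pseudocount of 0.1 and 1 with *Cldn11* above 2, in both cases *Itga1*, at -0.77 and -0.64. None was 1.5-fold higher under any alternative. The share of cells with *Itga9* was 60.96% above the gate and 61.4% in the rest at 20000 reads, 35.1% and 34.4% when values above 1 counted as found, and 79.9% in the rest among cells with at least 3000 genes. Of all genes compared, 1.78% were higher and 2.90% lower with a pseudocount of 0.1, 0.0700% and 0.0600% with *Cldn11* above 0, 0.918% and 0.783% with *Cldn11* above 2, 0.463% and 0.227% without cells near the gate, and 0.0647% and 0.0475% with no filter on low genes, which compares more genes. By summed reads 0.191% were lower. The cause of these changes was not tested. Depth limits the shares of rare genes such as *Itga2*.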
